A study of Mus musculus with 6 samples.

Results

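The genes that write and erase DNA methylation were followed in total RNA from mouse embryonic stem cells (ESCs) with a normal or a reduced dose of Srrm2. The set held 8 of the 42450 genes listed, chosen by name: the maintenance methyltransferase Dnmt1 and its partner Uhrf1, the de novo methyltransferases Dnmt3a and Dnmt3b with their cofactor Dnmt3l, and the dioxygenases Tet1, Tet2 and Tet3. All 8 had enough counts to be tested. Srrm2 encodes a large splicing factor of nuclear speckles, and the study asked what its reduced dose does to pluripotency and lineage choice. WT cells were the male mouse ESC line E14tg2a.4. Srrm2+/- cells were 1 gene-trap clone of that line, with a cassette truncating 1 allele in exon 1. There were 3 libraries per group. Cells of both genotypes were cultured with LIF on gelatin, with a serum-free medium containing LIF before collection. The study's methods give a single growth time after seeding for the total RNA cells of both genotypes.

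Per the study's methods, the replicates were thawed from 3 separately frozen batches per line, and WT was frozen at later passages than Srrm2+/-. Genotype, clone and passage therefore cannot be told apart in any value below. Library totals lay between 54151532 and 69933465 estimated counts, and levels are given in CPM, counts divided by the normalised library size. Srrm2 itself (chromosome 17, 23790532 to 23824741, plus strand) measured 91.1, 98.2 and 97.7 CPM in WT and 62.2, 56.2 and 59.6 CPM in Srrm2+/-, which was 62.0% of the WT mean (log2 fold change -0.69, SE 0.05, edgeR adjusted p = 2.38e-05). The targeted gene was lower in every library labelled Srrm2+/-.

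In mammals, DNA methylation is placed mostly on the cytosine of CpG dinucleotides. DNMT3A and DNMT3B add it to unmethylated sites, and DNMT3L, which has no catalytic activity of its own, binds and stimulates them. After replication UHRF1 recognises the half-methylated daughter strands and brings DNMT1 to copy the pattern. TET enzymes oxidise 5-methylcytosine to 5-hydroxymethylcytosine and further forms, which are lost through replication or excised and repaired. Mouse ESCs survive without the methyltransferases, and naive and primed pluripotent cells are known to differ in their content of de novo enzymes. Only RNA levels were measured here, not protein or DNA methylation.

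The promoter sequences of 4 of the genes that changed are shown, because CpG dinucleotides are the substrate of these same enzymes and their density differs widely between promoters. RefSeq windows of 300 bases around annotated starts (GRCm38.p6) matched all 8 genes with 15 windows. The starts shown lie inside the annotated span of their gene, except that of Dnmt3b, which lies at its 5′ end, and the first Dnmt3a start lies close to the 5′ end. Each line below gives the 250 bases upstream of a start, 5′ to 3′ on the strand of the gene, with CpG dinucleotides in capitals.
Dnmt3b, chr2:153649199-153649448, plus strand: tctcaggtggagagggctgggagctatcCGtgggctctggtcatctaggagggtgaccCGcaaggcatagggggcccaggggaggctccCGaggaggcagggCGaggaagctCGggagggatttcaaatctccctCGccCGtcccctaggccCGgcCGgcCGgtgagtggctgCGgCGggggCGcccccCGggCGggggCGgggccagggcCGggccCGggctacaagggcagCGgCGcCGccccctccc
Dnmt3a, first start, chr12:3806730-3806979, plus strand: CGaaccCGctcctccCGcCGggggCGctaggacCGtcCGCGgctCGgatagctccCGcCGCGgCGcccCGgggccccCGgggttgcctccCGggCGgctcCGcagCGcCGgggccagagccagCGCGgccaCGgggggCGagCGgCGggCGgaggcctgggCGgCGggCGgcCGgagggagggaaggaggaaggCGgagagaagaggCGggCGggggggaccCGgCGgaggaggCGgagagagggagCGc
Dnmt3a, internal start, chr12:3891494-3891743, plus strand: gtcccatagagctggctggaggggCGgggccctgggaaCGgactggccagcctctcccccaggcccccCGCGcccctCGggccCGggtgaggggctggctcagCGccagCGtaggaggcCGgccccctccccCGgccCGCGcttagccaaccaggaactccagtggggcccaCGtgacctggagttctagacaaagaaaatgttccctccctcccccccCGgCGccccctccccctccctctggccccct
Dnmt3l, second start, chr10:78049592-78049841, plus strand: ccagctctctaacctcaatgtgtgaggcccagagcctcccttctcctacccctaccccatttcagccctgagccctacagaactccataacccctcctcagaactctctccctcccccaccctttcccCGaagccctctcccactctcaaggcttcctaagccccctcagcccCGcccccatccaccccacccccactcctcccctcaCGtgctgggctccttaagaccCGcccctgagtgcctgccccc
Tet1, internal start, chr10:62887325-62887574, minus strand: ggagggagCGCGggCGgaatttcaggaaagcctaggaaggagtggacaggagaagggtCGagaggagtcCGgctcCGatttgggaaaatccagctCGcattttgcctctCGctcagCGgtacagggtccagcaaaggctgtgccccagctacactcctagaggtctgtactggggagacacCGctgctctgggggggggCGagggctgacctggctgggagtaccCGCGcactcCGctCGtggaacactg

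CpG density set Dnmt3l apart from Dnmt3a and Dnmt3b. Over the whole window of 300 bases, the Dnmt3b promoter held 30 CpG dinucleotides. The first Dnmt3a start held 46, the next one 47 and the internal start 18. The 3 Dnmt3l windows held 6, 4 and 3, below the median of 7 over 32851 windows of 27025 genes (quartiles 3 and 20). Tet1 held 17, Tet3 22 and Tet2 57, and only 0.152% of all windows held as many as Tet2. The Dnmt1 windows held 33, 12 and 2, and those of Uhrf1 12 and 33. The median over the 15 windows was 18, and in the lists of pathway genes read below it lay between 18 and 25.5. The GC box GGGCGG, searched like the next motif on both strands, occurred in 12 of the 15 windows and in 35.7% of all windows. The motif GGTCTCTAA, given for PRDM14, occurred in 0 of 15 windows and in 0.256% of all. These counts describe letters in short windows and say nothing about binding.

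Of the 8 genes, 4 were higher in Srrm2+/- (Dnmt3a, Dnmt3b, Dnmt3l and Tet3) and 1 was lower (Tet1) at an edgeR adjusted p under 0.05. That is 62.5% of the set, beside 25.3% of the 18905 genes tested, 13.6% higher and 11.7% lower. Among the more abundant genes (mean log2 CPM of 1 or more, which all 8 reached), 32.5% were called. The groups did not overlap for 6 of the 8, beside 41.4% of all tested genes. The set was chosen with earlier results of these data known, so the count has no test of its own.

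**Figure D1:**
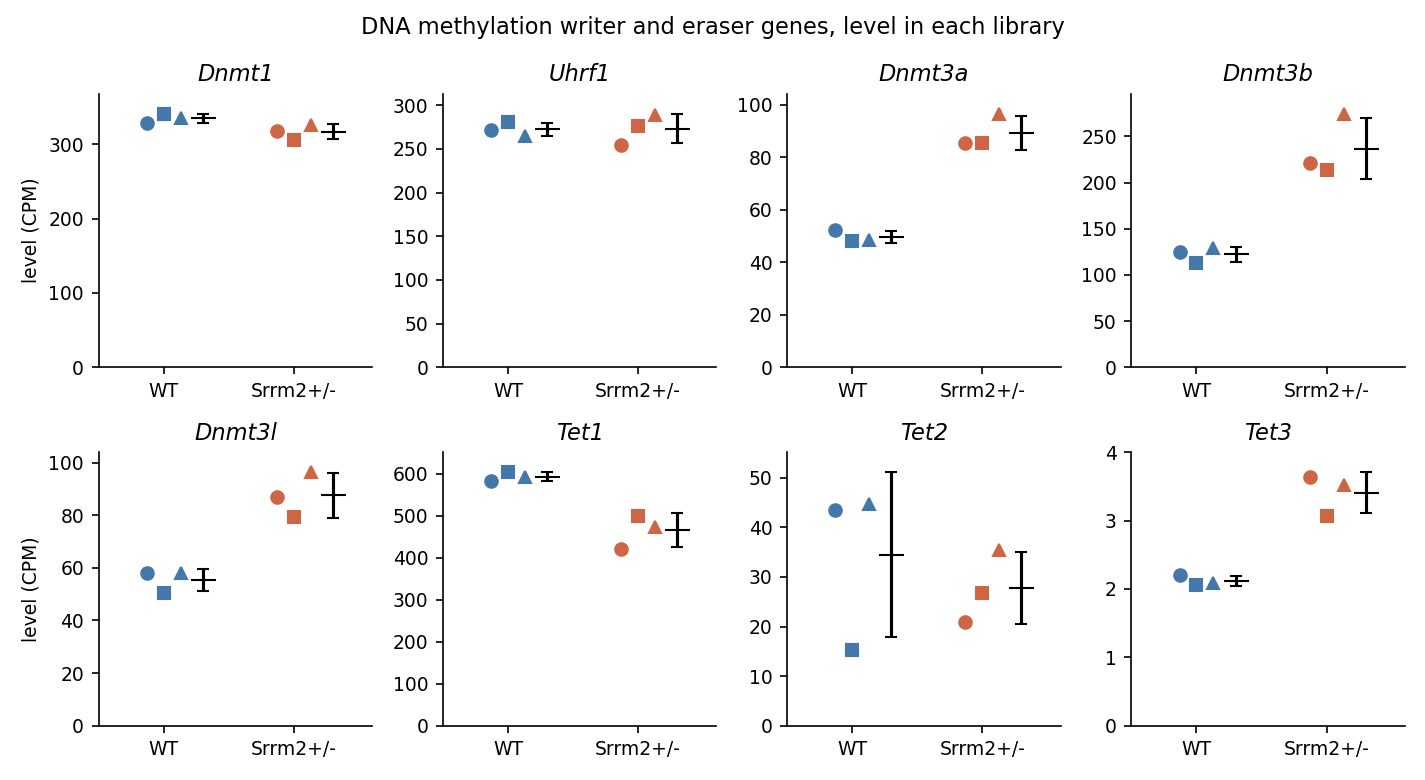
Level of each gene in CPM (vertical axes start at 0 and differ between panels) in the 3 WT and 3 Srrm2+/- libraries. Circles are replicate 1, squares replicate 2 and triangles replicate 3, with the mean and SD beside them in black. The de novo genes are higher in every Srrm2+/- library, Tet1 is lower in every one, and WT replicate 2 is the lowest point for Tet2.

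The largest differences of the set were those of Dnmt3b and Dnmt3a. Dnmt3b (chromosome 2, 153649450 to 153687730, plus strand), the de novo enzyme known for methylating CpG islands and gene bodies in the early embryo, measured 124, 113 and 129 CPM in WT and 221, 214 and 275 CPM in Srrm2+/-. Every Srrm2+/- library lay above every WT library, and replicate 3 of Srrm2+/- was the highest. The means were 122 ± 8.25 and 237 ± 33.1 CPM (SD, n = 3), a 1.94-fold difference (log2 fold change 0.95, SE 0.09, 95% interval 0.74 to 1.17, edgeR adjusted p = 0.00013). Of all tested genes, 8.72% had a log2 fold change as large in size.

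Dnmt3a (chromosome 12, 3806007 to 3914443, plus strand), which methylates many of the same sites and later in development takes over much of the de novo activity, measured 52.4, 48.0 and 48.5 CPM in WT and 85.4, 85.6 and 96.5 CPM in Srrm2+/-. The groups were well apart. The mean rose from 49.6 ± 2.40 to 89.2 ± 6.38 CPM (SD, n = 3), or 1.80-fold (log2 fold change 0.85, SE 0.06, 95% interval 0.71 to 0.98, edgeR adjusted p = 1.95e-05). The values sum over all its transcripts, of which 13 are annotated as coding, so the long form and the short form from the internal start shown above were not separated.

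The cofactor gene Dnmt3l (chromosome 10, 78041947 to 78063622, plus strand) measured 57.9, 50.5 and 57.9 CPM in WT and 86.8, 79.4 and 96.3 CPM in Srrm2+/-. It too was higher in every Srrm2+/- library, with replicate 3 again highest. Its mean went from 55.4 ± 4.27 to 87.5 ± 8.46 CPM (SD, n = 3), a 1.58-fold rise (log2 fold change 0.66, SE 0.08, 95% interval 0.48 to 0.84, edgeR adjusted p = 0.000381). All 3 de novo genes stayed called with each library left out in turn.

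The maintenance genes differed far less. Dnmt1 (chromosome 9, 20907209 to 20959888, minus strand) measured 329, 341 and 335 CPM in WT and 318, 307 and 327 CPM in Srrm2+/-. The groups did not overlap, but the gap between the nearest libraries was small. The means of 335 ± 6.02 and 317 ± 10.1 CPM (SD, n = 3) gave a log2 fold change of -0.08 (SE 0.04, 95% interval -0.17 to 0.0099, edgeR adjusted p = 0.184). The interval lay entirely below those of the 3 de novo genes, although the difference between genes was not tested.

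Uhrf1 (chromosome 17, 56303321 to 56323486, plus strand), which encodes the reader that guides DNMT1, measured 272, 280.4 and 265 CPM in WT and 255, 277 and 288 CPM in Srrm2+/-. The groups overlapped. With means of 272 ± 7.68 and 273 ± 17.0 CPM (SD, n = 3), its log2 fold change was 0.0051 (SE 0.05, 95% interval -0.11 to 0.12, edgeR adjusted p = 0.958).

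The TET genes moved in different directions. Tet1 (chromosome 10, 62804570 to 62908996, minus strand), the most abundant TET gene in ESCs, measured 583, 604 and 592 CPM in WT and 421, 500.5 and 474 CPM in Srrm2+/-. All 3 Srrm2+/- libraries were below all 3 WT libraries, and they were more spread out than the WT libraries. The mean fell from 593 ± 10.4 to 465 ± 40.6 CPM (SD, n = 3), to 78.5% of WT (log2 fold change -0.35, SE 0.06, 95% interval -0.49 to -0.21, edgeR adjusted p = 0.00324). A difference of this size is common in these data, as 31.5% of tested genes had one as large.

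Tet3 (chromosome 6, 83362373 to 83459084, minus strand), known best as the TET enzyme of the oocyte and zygote and of differentiated tissues, was the lowest of the set. It measured 2.20, 2.06 and 2.09 CPM in WT and 3.64, 3.07 and 3.52 CPM in Srrm2+/-. Each library held at least 112 counts, and the groups did not overlap. The mean rose 1.61-fold, from 2.12 ± 0.0732 to 3.41 ± 0.298 CPM (SD, n = 3; log2 fold change 0.69, SE 0.13, 95% interval 0.39 to 0.99, edgeR adjusted p = 0.00513).

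Tet2 (chromosome 3, 133463679 to 133545139, minus strand), the second TET gene of ESCs, measured 43.5, 15.2 and 44.7 CPM in WT and 20.9, 26.8 and 35.4 CPM in Srrm2+/-. WT replicate 2 held 34.6% of the mean of the other WT libraries, and the groups overlapped. The log2 fold change was -0.31 (SE 0.35, 95% interval -1.11 to 0.48, edgeR adjusted p = 0.575). Without WT replicate 2 it was -0.67 with an edgeR adjusted p of 0.0347 (6 of 8 members called, beside 19.2% of genes tested in that fit), so that 1 library decided whether Tet2 was called.

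**Figure D2:**
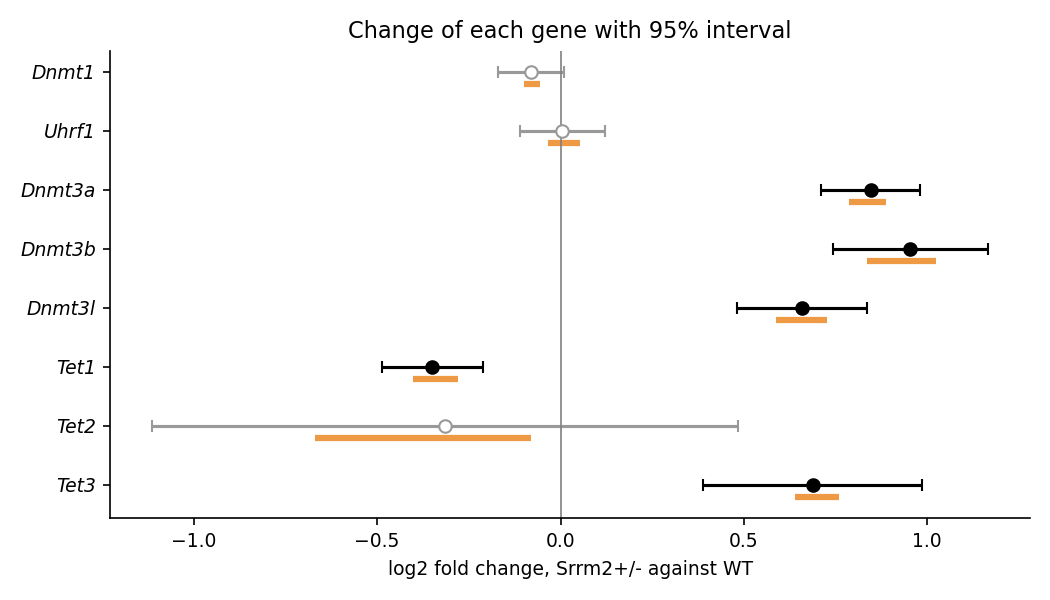
Log2 fold change of each gene, Srrm2+/- against WT (points), with its 95% interval (whiskers) from edgeR. Filled points passed an adjusted p under 0.05 and open points did not, and orange bars span the values with each library left out in turn. Dnmt3b lies highest at 0.95, Tet1 at -0.35, and Tet2 has the widest interval, from -1.11 to 0.48.

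Levels of different genes were compared per kilobase of transcript, using the mean length of the coding transcripts. In WT the order was Tet1 at 148 ± 2.61, Uhrf1 at 94.7 ± 2.67, Dnmt1 at 60.9 ± 1.09, Dnmt3l at 37.0 ± 2.85, Dnmt3b at 29.8 ± 2.01, Dnmt3a at 19.9 ± 0.961, Tet2 at 7.22 ± 3.49 and Tet3 at 0.366 ± 0.0127 CPM per kilobase (SD, n = 3). No neighbours in this WT order overlapped. In Srrm2+/- both ends of the order were the same, with Tet1 first at 117 ± 10.2 and Tet3 last at 0.591 ± 0.0516 CPM per kilobase. In the middle, Dnmt3l (52.96 to 64.2), Dnmt3b (52.1 to 66.9) and Dnmt1 (55.7 to 59.3 CPM per kilobase) could no longer be ordered, since their ranges overlapped. The order depended on the length used, and with the longest coding transcript Uhrf1 (76.0) and Dnmt1 (57.1) stood above Tet1 (41.2 CPM per kilobase) in WT.

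Ratios of counts within a library do not depend on how libraries are scaled. The ratio of Dnmt3b to Tet1, a writer to an eraser, was 0.213, 0.187 and 0.218 in WT and 0.526, 0.428 and 0.579 in Srrm2+/-, so the group means differed 2.48-fold. The corresponding difference was 2.30-fold for Dnmt3a to Tet1 and 2.02-fold for Dnmt3l to Tet1, and in none of these ratios did the groups overlap. That separation adds no evidence beyond the levels above, since each de novo gene was higher and Tet1 lower in every Srrm2+/- library. The same holds for Dnmt3b to Dnmt1, because Dnmt1 was also lower in every one. Its WT value averaged 0.365 ± 0.0292, against 0.745 ± 0.0832 for Srrm2+/- (SD, n = 3). Nor was a higher ratio to Tet1 limited to writers, as Tet3 to Tet1 differed 2.07-fold. Tet2 to Tet1 overlapped between the groups, its Srrm2+/- mean being 1.015 times the WT mean.

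Within the de novo group, the 3 genes did not keep one proportion. Dnmt3a to Dnmt3b overlapped between the groups, at 0.407 ± 0.0274 in WT and 0.379 ± 0.0249 in Srrm2+/- (SD, n = 3). Dnmt3l to Dnmt3b was 0.466, 0.447 and 0.448 in WT and 0.392, 0.371 and 0.351 in Srrm2+/-, so every Srrm2+/- library held less of the cofactor gene relative to the enzyme gene than any WT library. The ratio of Tet1 to Dnmt1 was 1.77 in each WT library, after rounding, and 1.32, 1.63 and 1.45 in Srrm2+/-. Uhrf1 to Dnmt1 overlapped, at 0.812 ± 0.0188 and 0.862 ± 0.0535 (SD, n = 3). These ratios are given as descriptions without a test.

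**Figure D3:**
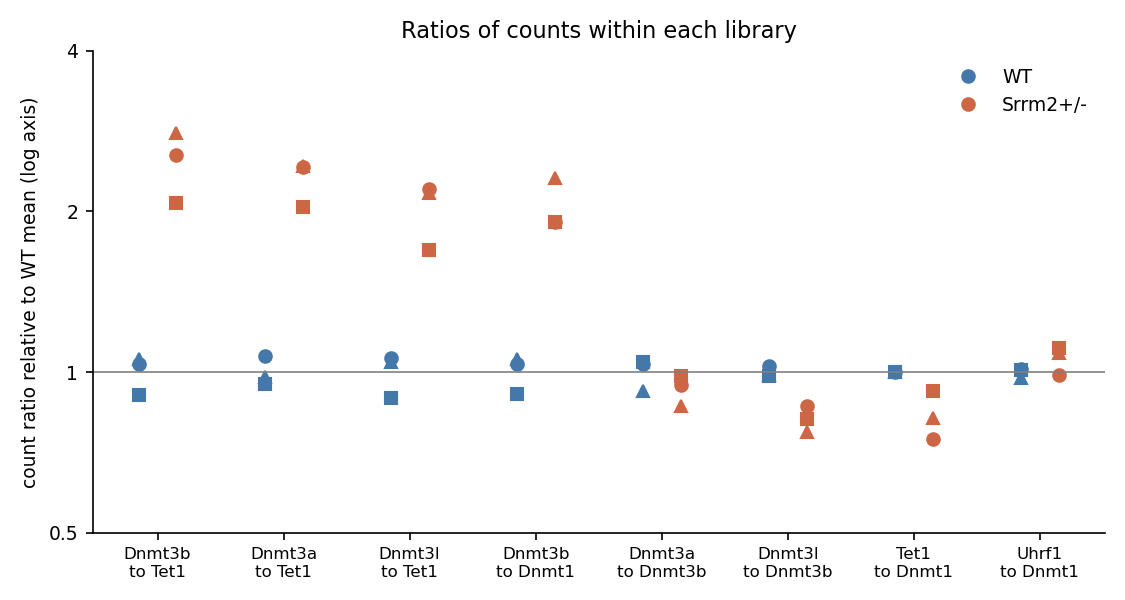
Ratio of the counts of a pair of genes within each library, divided by the WT mean of that ratio (log axis). Blue points are WT and orange points Srrm2+/- libraries, with circles for replicate 1, squares for 2 and triangles for 3. The ratios of de novo genes to Tet1 average 2.02 to 2.48 times the WT mean, while Dnmt3a to Dnmt3b and Uhrf1 to Dnmt1 overlap between the groups.

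The genes whose profile over the 6 libraries lay closest to each member were taken from 10882 coding genes, by the root mean square difference of log2 CPM centred on the WT mean. For Dnmt3a they were Erap1 (0.0294) and Ripk4 (0.0414), and for Dnmt3b Id1 (0.0603) and again Ripk4 (0.0706). Dnmt3l lay nearest to Arrb1 (0.0415) and Slc1a3 (0.0481), Tet1 to 9430038I01Rik (0.0260) and C1s1 (0.0343), and Tet3 to Spry4 (0.0382) and Ajuba (0.0469). Dnmt1 lay nearest to Esf1 (0.0170) and Ino80 (0.0180), and Uhrf1 to Gnpda1 (0.0145) and Slc25a17 (0.0147). Tet2 had no close match, as its nearest genes Kifc2 and Fbxo15 differed by 0.257 and 0.271.

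Other genes of the pathway were read from lists by role, beside the 25.3% called and the median log2 fold change of -0.0025 over all tested genes. Most list genes had a mean log2 CPM of 1 or more, and 32.5% of all such genes were called. Among genes that recruit, restrict or protect against the methyltransferases, 8 of 12 were called, 4 higher and 4 lower (median log2 fold change 0.043). Prdm14, a transcription regulator known to repress the de novo methyltransferase genes in naive ESCs, measured 19.6, 21.4 and 18.8 CPM in WT and 9.20, 10.6 and 9.69 CPM in Srrm2+/- (log2 fold change -1.02, SE 0.08, edgeR adjusted p = 2.6e-05). Ehmt2, an H3K9 methyltransferase, rose from 67.9 ± 2.84 to 95.6 ± 0.279 CPM (SD, n = 3; log2 fold change 0.49, edgeR adjusted p = 5.02e-05), and its partner Ehmt1 and the CpG island protein Kdm2b were also higher, by 0.26 and 0.43 on the log2 scale. Zfp57, which guards methylation at imprinted regions, and the H3K36 methyltransferase gene Nsd1 were both lower, each with a log2 fold change of -0.25. Setdb1 (-0.16) and Dppa4 (0.14) were called too, but not with every library left out.

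Of 9 maintenance partners, 3 were called (median log2 fold change -0.044). Dppa3, whose product is known to displace UHRF1 from chromatin, measured 23.1, 20.3 and 25.4 CPM in WT and 38.9, 37.2 and 36.0 CPM in Srrm2+/- (log2 fold change 0.71, SE 0.08, edgeR adjusted p = 0.000253). Pclaf, a factor bound to the replication clamp, was higher (0.25) and the clamp gene Pcna lower (-0.18 on the log2 scale). Of the related enzymes 1 of 2 tested was called (median -0.18). Uhrf2, a paralogue of Uhrf1, was called lower (log2 fold change -0.26, edgeR adjusted p = 0.0155), but not without WT replicate 1, Srrm2+/- replicate 2 or Srrm2+/- replicate 3. The RNA methyltransferase gene Trdmt1 was not called (-0.10), and Dnmt3c, a rodent copy of Dnmt3b active in male germ cells, held at most 4 counts.

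On the eraser side, 7 of 14 tested TET partners and genes of cofactor supply were called, 2 higher and 5 lower (median log2 fold change -0.048). Nanog, a pluripotency factor that binds TET1, had the largest fall, from 482 ± 15.2 to 292 ± 11.04 CPM (SD, n = 3; log2 fold change -0.72, edgeR adjusted p = 8.6e-06). Idh2, a mitochondrial enzyme making the TET cosubstrate 2-oxoglutarate, fell from 129 ± 5.003 to 94.6 ± 3.50 CPM (SD, n = 3; log2 fold change -0.45, edgeR adjusted p = 0.000153). The vitamin C transporter gene Slc23a2 was lower (-0.28) and the RNA-binding protein gene Lin28a higher (0.37 on the log2 scale). Idh1 was called higher (0.16), opposite to Idh2, and D2hgdh (-0.34) and Ogt (-0.11 on the log2 scale) were called lower. Each of these 3 lost the call with at least 1 library left out.

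Of 16 genes of base excision and demethylation, 6 were called, 3 in each direction (median log2 fold change -0.097). The stress-induced genes Gadd45b and Gadd45g, named in some systems as helpers of demethylation, had the largest rises. The third gene of that family, Gadd45a, was not called (54.4 ± 1.31 and 57.5 ± 0.775 CPM, SD, n = 3, log2 fold change 0.08, edgeR adjusted p = 0.174). Gadd45b went from 7.29, 7.33 and 6.57 CPM to 16.6, 14.6 and 12.8 CPM (log2 fold change 1.05, edgeR adjusted p = 0.000142), and Gadd45g from 1.94 ± 0.227 to 4.04 ± 0.796 CPM (SD, n = 3; log2 fold change 1.06, edgeR adjusted p = 0.00261). The glycosylase gene Tdg, which excises the oxidised bases that TET enzymes make, was not called (log2 fold change 0.09, 95% interval -0.04 to 0.22, edgeR adjusted p = 0.327). Ung, Neil2, Neil3 and Lig3 were called, but not with every library left out.

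The list of methyl-CpG readers also held relatives of such readers, Mbd3 among them, and binding was not measured. Of its 9 genes, 3 were called, with Zbtb38 lower (-0.29) and Zbtb33 (0.33) and Mbd3 (0.26 on the log2 scale) higher (list median -0.117). Of these 3, Zbtb38 was the one that stayed called under each alternative run. In the methyl donor cycle, 5 of 17 tested genes were called, 1 higher and 4 lower (median 0.055). Tdh, the threonine dehydrogenase gene and a known source of methyl groups in mouse ESCs, fell by 0.29 on the log2 scale, and Shmt1, a serine hydroxymethyltransferase gene, fell by 0.17, while the folate enzyme gene Mthfd1 rose by 0.22.

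Germline genes of the kind known to be silenced by promoter methylation moved both ways. Of 15 tested, 2 were higher and 5 lower (median log2 fold change -0.154). Tdrd1, a piRNA pathway gene, rose from 1.26 ± 0.246 to 3.49 ± 0.167 CPM (SD, n = 3; log2 fold change 1.46, edgeR adjusted p = 0.000344) and Mael by 0.53. Hormad1, a meiotic chromosome axis gene, fell from 23.5 ± 2.71 to 11.9 ± 0.807 CPM (SD, n = 3; log2 fold change -0.98, edgeR adjusted p = 8.85e-05), and the synaptonemal complex genes Syce1 and Sycp3 had log2 fold changes of -0.39 and -0.21. Stk31 (-0.34) and Stra8 (-1.08) were also called lower, but not with every library left out.

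**Figure D4:**
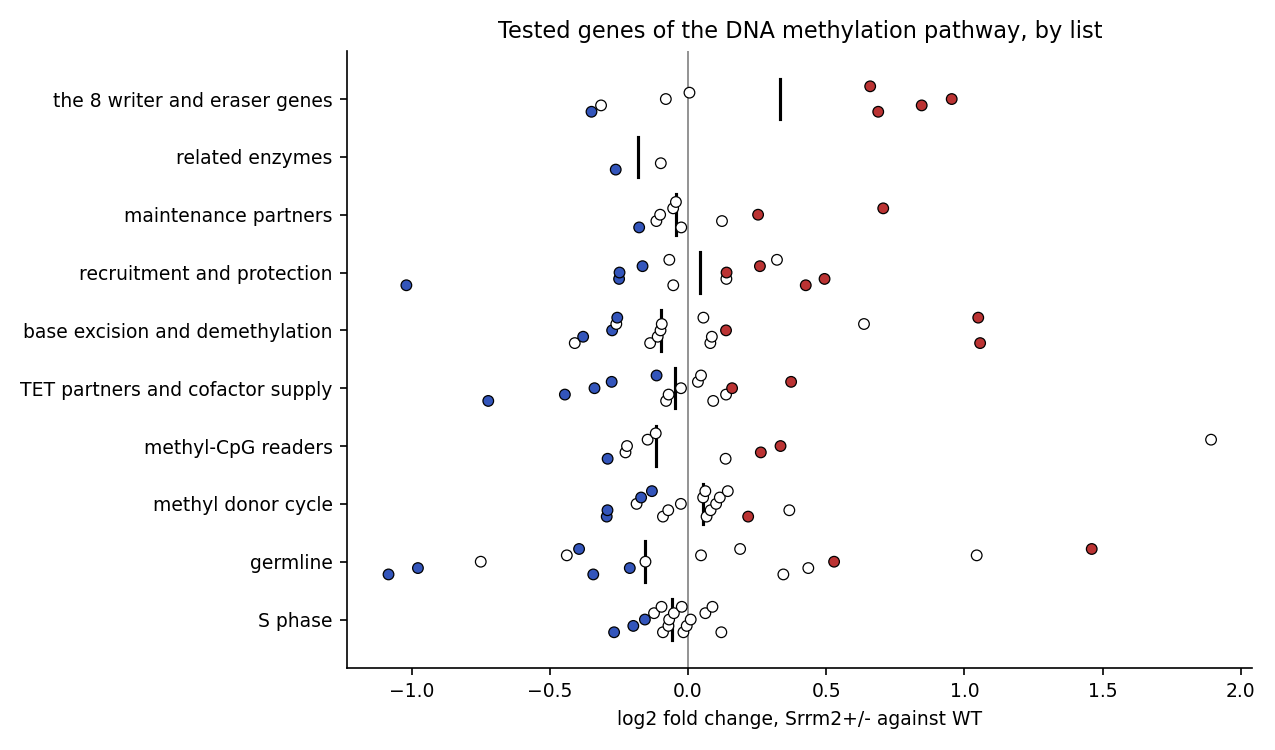
Log2 fold change, Srrm2+/- against WT, of each tested gene in the set and in the lists of the DNA methylation pathway. Each point is a gene, red for called higher, blue for called lower and white for not called, and the black bar is the list median. The medians of the other lists lie between -0.18 and 0.055. That of the 8 genes, 0.33, falls in the gap between Uhrf1 (0.0051) and Dnmt3l (0.66) and describes no single gene. The set and the lists were chosen with earlier results known, so their medians are not a test. The white point at 1.89 is Mbd1, which was not called.

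Dnmt1, Uhrf1 and Pcna are transcribed mainly in S phase, so S phase genes were read beside them. Of 16 such genes, 0 were called higher and 3 lower in edgeR (E2f1 -0.27, Mcm6 -0.20 and Rrm2 -0.16), with a list median of -0.06. Rrm2 was not called with every library left out. The 3 make up 18.75% of the list, beside 25.3% of all tested genes. That share also stands beside the marker counts that follow. Of ESC markers, 1 of 8 was higher (Utf1) and 4 were lower (Sox2, Zfp42, Dppa5a and Fgf4). Dppa5a lost its call with the replicate block and with some libraries left out. The summed level of the 8 markers was 4554 to 4694 CPM in WT and 4128 to 4187 CPM in Srrm2+/-. The defining ESC markers were thus present in all libraries. Fibroblast markers were higher in 4 of 6 tested, with a summed level of 3.47 to 3.68 CPM in WT and 6.99 to 10.9 CPM in Srrm2+/-, and 3 of the 8 stayed under 1 CPM in all libraries. The markers called higher were Col1a2 (0.197 ± 0.0791 and 2.96 ± 0.768 CPM; log2 fold change 3.89), Postn (0.103 ± 0.0468 and 0.741 ± 0.269 CPM; 2.83), Col3a1 (0.521 ± 0.142 and 2.53 ± 0.845 CPM; 2.28) and Col1a1 (0.503 ± 0.0191 and 1.11 ± 0.130 CPM; 1.13; SD, n = 3 per group). Thy1 (-0.70) and Pdgfrb (0.23 on the log2 scale) were not called, and the proteoglycan genes Dcn and Lum, too low to be tested, were at most 0.0578 CPM.

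Primitive streak markers summed to 0.970 to 1.95 CPM in WT and 3.34 to 4.33 CPM in Srrm2+/-, with 1 of 3 tested called. The called gene was T, the brachyury gene (0.886 ± 0.267 and 3.29 ± 0.531 CPM, SD, n = 3), which made up most of the sums. Gsc went the other way without a call (log2 fold change -0.998, edgeR adjusted p = 0.141). Mixl1 (0.32 on the log2 scale) was not called, and Mesp1 was too low to be tested. The higher sum thus came from T and not from the list as a whole. Trophectoderm markers summed to 1.72 to 1.88 and 2.26 to 2.61 CPM, with 1 of 3 tested called (Eomes, not called with DESeq2, nor with a library left out other than WT replicate 2). Primitive endoderm markers summed to 1.49 to 1.90 and 1.41 to 1.80 CPM, with 0 of 3 called in edgeR, and neural markers to 74.6 to 80.6 and 50.03 to 53.2 CPM, with 2 of 3 lower. The part of these marker levels in the differences of the 8 genes was not tested. In bulk RNA, fewer cells expressing a gene and less of it per cell cannot be told apart.

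Sequence shared with other genes was largest for 2 members, and its effect on their counts was not measured. Of the 31-base words of Uhrf1 transcripts 24.2% also occur in other genes, most in the pseudogene Gm5648, which held at most 1 count, and of those of Dnmt3b 13.5% occur in Dnmt3c. For the other 6 genes the share was at most 1.75%. Aire, which overlaps Dnmt3l on the opposite strand, held at most 254 counts, and the antisense genes Dnmt3bos and Dnmt3aos at most 41 and 7.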

How the data were processed

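Total RNA libraries (a stranded kit, paired-end reads) were made from 3 WT and 3 Srrm2+/- samples, grouped by their titles. The authors pseudo-aligned reads to a GENCODE mouse transcriptome with Kallisto 0.46.1 (build mm10, per the labels) and deposited unnormalized estimated counts for each gene. Whether strand was used is not given in the sources used here. The program divides shared reads among similar or overlapping transcripts.

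Here the estimated counts were rounded, and 42156 of 42450 identifiers were matched to GENCODE release 21 of the mouse (M21, GRCm38) for symbols, positions and lengths. Genes past filterByExpr (minimum count 10, minimum total 15) numbered 18905. They were tested with edgeR 4.0.16 (TMM, glmQLFit, glmQLFTest; two-sided) on genotype alone, Benjamini-Hochberg adjustment over all tested genes and calls at 0.05. The SE was the log2 fold change divided by the square root of F, and 95% intervals used the t quantile at the fit's degrees of freedom. Group values are mean ± SD of CPM.

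The members and lists were chosen with earlier results of these data known, and the study names some of the list genes from the same libraries. It names Dnmt3a and Dnmt3b from its single-cell data. From each list, the 2 largest called changes among genes of mean log2 CPM 1 or more were always named, others called could be, and for each member its 2 nearest profiles. In the methyl donor cycle list, 1 gene that the rule names is not reported here. Mbd1, Sycp1, Tdg, Gadd45a and Trdmt1 were named after their values were seen. Alternatives were RLE and upper quartile scaling, DESeq2 1.42.0, limma voom (limma 3.58.1), other filters, leaving out short RNAs, rRNA and mitochondrial genes, a replicate block, each library left out, a stricter threshold and other lengths. Over all tested genes, samples with the same replicate number did not deviate together (correlations -0.028, -0.034 and -0.03). Replicates differed by more than counting noise (lowest chi-square over its degrees of freedom 14.7 in a group). The scripts were tested on simulated data. The table held 0 spike-in rows. The p-values set the difference between the groups against the spread between these samples. That spread covers thawed batches and not independent clones.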

Additional observations from a re-analysis of the deposited data

How the results depend on the processing

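Each of the 8 log2 fold changes was recomputed under 14 alternatives. Of these 112 values, 108 kept their direction and their side of the threshold, and Dnmt3a, Dnmt3b, Dnmt3l, Tet1 and Tet3 kept both under all 14. Tet2 was called without WT replicate 2 (-0.67), and its values with each library left out ran from -0.669 to -0.081. Uhrf1, close to 0, turned negative without WT replicate 3 (-0.0123), Srrm2+/- replicate 2 (-0.0014) or Srrm2+/- replicate 3 (-0.0339), in a range of -0.0339 to 0.0541. With each library left out, the number of called genes ranged from 5 to 6 for the 8 members, 0 to 1 for related enzymes, 3 to 5 for base excision and demethylation, 1 to 4 for methyl-CpG readers and 4 to 6 for TET partners. The lowest counts came without WT replicate 1, Srrm2+/- replicate 2 or 3 for related enzymes, without any library but WT replicate 3 and Srrm2+/- replicate 2 for base excision, without WT replicate 2 or Srrm2+/- replicate 1 for readers, and without either replicate 3 for TET partners. These fits used fewer samples, and 18.1% to 21.1% of all tested genes were called in them, beside 25.3% with all libraries. Srrm2+/- replicate 3 had the largest effect on the count over all genes, which fell to 3515 of 19464. At an adjusted p under 0.01, 2779 genes (14.7%) were called, with 0 related enzymes, 2 base excision genes, 4 TET partners and 1 methyl-CpG reader. In the order of levels per length, 5 of 8 members kept their place with the longest coding transcript and 3 of 8 with merged exons. With the replicate block, 4166 genes (22.0%) and the same number of members, 5, were called, and the log2 fold change of Dnmt3b was 0.95 and that of Tet1 -0.35. Over all tested genes the replicate numbers did not pair the samples, and for the 8 members alone this was not tested.

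Tet3 had the fewest counts of the members, at least 112 per library. With 3 libraries per group, small changes such as that of Dnmt1 were not resolved, and 1 clone and its passage stand behind every Srrm2+/- value.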

Other observations

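Tet2 varied between WT libraries far more than most genes. Its SD of log2 CPM over the 3 WT libraries was 0.883, beside a median of 0.0621 over 9006 tested genes (mean log2 CPM 3 or more), and 18 of them (0.2%) had an SD as large. In Srrm2+/- its SD was 0.378. In the lists, Mbd1 and Sycp1 also varied widely and were named after their values were seen. Mbd1, a methyl-CpG reader, measured 1.17, 0.121 and 0.149 CPM in WT and 2.46, 0.391 and 2.53 CPM in Srrm2+/- (log2 fold change 1.89, SE 0.86, edgeR adjusted p = 0.147). Sycp1, a synaptonemal complex gene, measured 2.29, 6.14 and 1.62 CPM in WT and 5.86, 7.91 and 7.03 CPM in Srrm2+/- (log2 fold change 1.04, SE 0.40, edgeR adjusted p = 0.094). In both genes the groups overlapped.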
